A study of Mus musculus with 8 samples.

Results

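The arginases and the core genes of polyamine metabolism were followed across 4 progenitor populations of mouse marrow. The 8 members were the arginases Arg1 and Arg2, the synthetic enzymes Odc1, Amd1, Srm and Sms, the antizyme Oaz1 and the catabolic enzyme Sat1. They were chosen by symbol, with earlier results of these data known, and all 8 of the 22878 gene symbols in the tables were found, each with 1 transcript. Every member passed the filter on low counts.

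The study asked what changes between common lymphoid progenitors (CLP) and common helper-like innate lymphoid progenitors (ChILP), and what sets PD-1+ progenitors apart from CCR6+ progenitors. Innate lymphoid cells (ILCs) are lymphocytes without rearranged antigen receptors. All cells came from C57BL/6 mice, an inbred strain with no transgene named in the labels, and each population had 2 Smart-seq2 libraries read at 50 bases. PD-1+ cells carried the ChILP surface profile plus PD-1 and no CCR6, and the labels call them non-LTi progenitors, LTi standing for the lymphoid tissue inducer cell. CCR6+ cells carried that profile plus CCR6 and no PD-1, and are labelled LTi progenitors. The ChILP profile was CD127, Kit and integrin α4β7 on cells negative for lineage markers, Flt3 and ST2. The CLP profile was Flt3, CD127, Kit and Sca-1 on cells negative for lineage markers and integrin α4β7. PD-1+ and CCR6+ cells were pre-enriched by magnetic capture of α4β7+ cells, whereas ChILP and CLP were pre-enriched by depletion of lineage-positive cells. In a comparison across these routes, the route and the population cannot be told apart. Whether a group's libraries are from different mice is not stated in the labels. The p-values therefore describe the spread of these libraries only, and that spread may be technical.

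Arginase splits arginine into urea and ornithine, and ornithine decarboxylase turns ornithine into putrescine. Spermidine synthase and spermine synthase then add aminopropyl groups, supplied by S-adenosylmethionine decarboxylase, to give spermidine and spermine. Polyamines bind nucleic acids and are needed for cell growth, spermidine is the source of the hypusine residue of the translation factor eIF5A, and spermidine/spermine acetyltransferase marks polyamines for breakdown or export. Arg1 is a known product of macrophages, of myeloid cells and of group 2 ILCs (ILC2) and their progenitors.

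Each library held between 7685191 and 13997891 reads over genes, and the test covered 13619 genes. Levels are RPKM, reads scaled to transcript length and library size, which allow genes to be set side by side per length. Changes are log2 fold changes with their standard error (SE) from edgeR's quasi-likelihood test, and a called gene is one whose p, adjusted by Benjamini and Hochberg's method over the whole table, is under 0.05. The chi-square per gene between the libraries of a group was 40.5 to 79.7, well above sampling noise. The gate genes followed the sort only in part. Pdcd1, which encodes PD-1, stood at 180.6 and 36.3 RPKM in PD-1+, 0 and 1.10 in CCR6+, 70.9 and 92.9 in ChILP, and 0.823 and 0.319 in CLP. Ccr6 stood at 0 and 8.11 RPKM in PD-1+ libraries and at 84.2 and 23.6 in CCR6+ libraries. In Pdcd1 and Ccr6, PD-1+ replicate 2 and CCR6+ replicate 2 thus lay closer to each other than the replicates 1 did. Kit and Il7r, the latter encoding CD127, also stood lower in replicate 2 of both groups. Kit stood at 29.2 and 8.21 RPKM in PD-1+, 17.5 and 6.93 in CCR6+, and 28.5 to 42.0 in ChILP and CLP. Il7r stood at 45.2 and 13.5 RPKM in PD-1+, 27.5 and 12.2 in CCR6+, and 19.2 to 35.4 in ChILP and CLP. Flt3 reached 92.1 and 157 RPKM in CLP and 5.10 to 10.4 in the other libraries. Transcripts of mature myeloid cells went with the route of enrichment. The summed level of 10 monocyte and macrophage markers was 7033 and 13960.0 RPKM in PD-1+, 10730.0 and 15910.0 in CCR6+, 1462 and 691 in ChILP, and 1039 and 497 in CLP, and no marker was at 0 in any library.

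**Figure D1:**
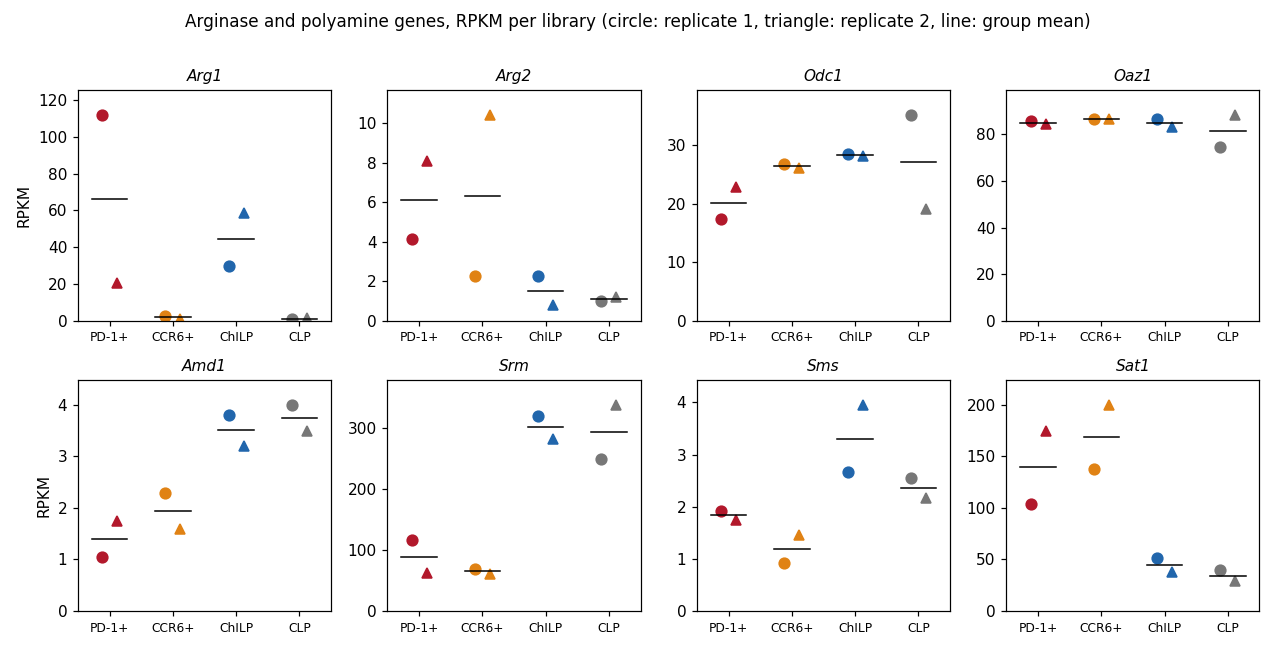
RPKM of the 8 members in each library, on an axis of its own for each gene; circles are replicate 1, triangles replicate 2 and lines group means. Arg1 is high in PD-1+ (20.8 and 112) and ChILP (29.9 and 58.7), Srm is low and Sat1 high in PD-1+ and CCR6+, and Oaz1 lies between 74.5 and 88.4 throughout.

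Some members share long stretches with other genes, which bears on how far their levels can be read. Of all 50-base windows of the GENCODE transcript, 0% of those of Arg1 and Arg2 occurred in a transcript of another gene, 2.4% of those of Srm and 7.28% of those of Sat1. The share was 28.7% for Sms, 42.2% for Odc1, 53.9% for Oaz1 and 87.6% for Amd1. How reads that fit several genes were counted is not given in the sources used here, so the levels of these last 4 genes are uncertain.

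Arg1 (NM_007482), the cytosolic arginase, separated PD-1+ and ChILP from CCR6+ and CLP. It stood at 112 and 20.8 RPKM in PD-1+, at 2.66 and 0.929 in CCR6+, at 29.9 and 58.7 in ChILP, and at 0.823 and 1.34 in CLP. Every PD-1+ and ChILP library lay above every CCR6+ and CLP library, PD-1+ and ChILP overlapped, and so did CCR6+ and CLP. The highest library was 136 times the lowest, the widest span of the 8 members. Counting error was small beside this gap: Arg1 had 2402 and 498 reads in PD-1+ and 806 and 1339 in ChILP, against 42 and 20 in CCR6+ and 13 and 29 in CLP.

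Arg1 averaged 44.3 ± 20.4 RPKM in ChILP and 1.08 ± 0.367 RPKM in CLP (SD, n = 2 libraries each, as below), a log2 fold change of 5.40 (SE 0.91). Its edgeR adjusted p was 0.0907, so it was not called, and the unadjusted p was 0.000366. None of the 8 members was called in ChILP against CLP, where 3 genes in all, 0.022% of those tested, were called and 792 had an unadjusted p under 0.05. DESeq2's Wald test called 261 genes, Arg1 among them with an adjusted p of 1.3e-09. A fit of only the 4 libraries compared also called Arg1, with an edgeR adjusted p of 0.0297. The other alternatives run did not call it. Its edgeR adjusted p was 0.172 with no filter, 0.166 with a replicate block and 0.0635 with a filter of 5 RPKM in 2 libraries. By limma it was 0.0733 on log2(RPKM + 1) and 0.156 on log2(RPKM + 0.1).

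The same gene set the captured populations apart in level. Arg1 averaged 66.3 ± 64.4 RPKM in PD-1+ and 1.795 ± 1.22 in CCR6+, a log2 fold change of 5.12 (SE 0.89). In that comparison edgeR's quasi-likelihood test called 0 genes, 0.0% of those tested and none of the 8 members, while 801 genes had an unadjusted p under 0.05 and DESeq2's Wald test called 131. Arg1 had an unadjusted p of 0.000435 and an adjusted p of 0.359 by edgeR, and an adjusted p of 2.72e-08 by DESeq2. Without PD-1+ replicate 2, whose Arg1 level was the lower of the pair, the log2 fold change was 5.86. It was 3.54 without PD-1+ replicate 1, 6.05 without CCR6+ replicate 1 and 4.52 without CCR6+ replicate 2. Each of these fits left 1 library in a group.

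Against CLP, Arg1 rose 70.9-fold in PD-1+ (log2 fold change 6.15, SE 0.94, edgeR adjusted p = 0.0143). Without CLP replicate 1 the log2 fold change was 5.91, and without CLP replicate 2 it was 6.47. Each of these fits left 1 library in CLP. Neither kept the call, and both called fewer genes over the whole table. In CCR6+ against CLP the log2 fold change of Arg1 was 1.03 (SE 0.88) and the edgeR adjusted p was 0.498, and the libraries overlapped in level. The comparisons against CLP share the CLP libraries. In PD-1+ and CCR6+ together against ChILP, a comparison added after the values were seen, the log2 fold change was -1.81 (SE 0.62, edgeR adjusted p = 0.0981), an average over groups that lay on both sides of the gap in Arg1. With each library left out in turn, this log2 fold change ran from -2.53 to -1.24. The value of -2.53 came without PD-1+ replicate 1, the library with the most Arg1.

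The levels of Arg1 and the summed macrophage markers had different orders over the libraries. CCR6+ replicate 2 had the highest sum of monocyte and macrophage markers, 15910.0 RPKM, and an Arg1 level of 0.929. Nos2, the inducible nitric oxide synthase that competes with arginase for arginine in activated macrophages, had 0 reads in all 8 libraries, which allows up to 0.00653 RPKM over them together (counting error only). Of the 7 ILC2 markers, Gata3, Rxrg and Il17rb were high in the same libraries as Arg1 and carried most of the sum. The 7 summed to 477 and 93.2 RPKM in PD-1+, 18.9 and 17.0 in CCR6+, 103 and 204 in ChILP, and 12.2 and 9.54 in CLP, while the ILC2 cytokines Il5 and Il13 were at 0 in all PD-1+, CCR6+ and ChILP libraries. The others did not follow Arg1. Il1rl1, which encodes ST2, stood at 0.0678 and 4.45 RPKM in PD-1+, 3.95 and 1.84 in CCR6+, 6.63 and 2.49 in ChILP, and 4.63 and 2.22 in CLP, so it was lowest in the library with the most Arg1. Klrg1 stood at 1.16 and 1.31 RPKM in PD-1+, 3.03 and 0.908 in CCR6+, 0 in both ChILP libraries, and 0.137 and 0 in CLP. The parts of macrophages and of ILC2 in the Arg1 level were not tested. In bulk libraries, fewer cells with a transcript and less of it per cell cannot be told apart.

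Among 6915 genes that averaged 10 RPKM or more in 1 or more groups, the 5 whose log2(RPKM + 1) ran closest to that of Arg1 over the 8 libraries were Rxrg (Pearson r = 0.989), Bcl11b (0.988), Bcl2 (0.988), Bcas1 (0.978) and Lpar6 (0.978). Rxrg encodes a retinoid X receptor, Bcl11b a zinc finger transcription factor of T cells and ILC2, and Bcl2 a survival protein. Rxrg stood at 98.1 and 13.4 RPKM in PD-1+, 0.0439 and 0 in CCR6+, 27.6 and 43.9 in ChILP, and 0.219 and 0.0641 in CLP. These correlations describe 8 libraries that fall into 4 groups of 2, which share depth and sort, and Rxrg is also one of the ILC2 markers.

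Arg2 (NM_009705), the mitochondrial arginase, had another arrangement. It stood at 4.13 and 8.08 RPKM in PD-1+, 2.24 and 10.4 in CCR6+, 2.28 and 0.777 in ChILP, and 0.989 and 1.21 in CLP. Its levels were low everywhere, at 15 to 215 reads per library. PD-1+ lay above ChILP and CLP, CCR6+ lay above CLP and overlapped ChILP, and the highest value was that of CCR6+ replicate 2. The log2 fold change was 2.77 (SE 1.01) in PD-1+ against CLP and 2.85 (SE 1.01) in CCR6+ against CLP, with edgeR adjusted p-values of 0.141 and 0.113, so neither passed. DESeq2's Wald test called both, with adjusted p-values of 0.0348 and 0.0221. Arg2 was highest in the library with the highest sum of monocyte and macrophage markers, and the part of those cells in its level was not tested.

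Arg1 therefore made up unequal shares of the arginase level within a library. Its share of the summed Arg1 and Arg2 RPKM was 96.4% and 72.0% in PD-1+, 54.2% and 8.19% in CCR6+, 92.9% and 98.7% in ChILP, and 45.4% and 52.7% in CLP. PD-1+ and ChILP libraries all exceeded CCR6+ and CLP libraries, and the 2 CCR6+ libraries lay far apart. The CLP shares rest on few reads, 13 and 29 of Arg1 and 15 and 25 of Arg2. Those of CCR6+ rest on 42 and 20 reads of Arg1 and 34 and 215 of Arg2.

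**Figure D2:**
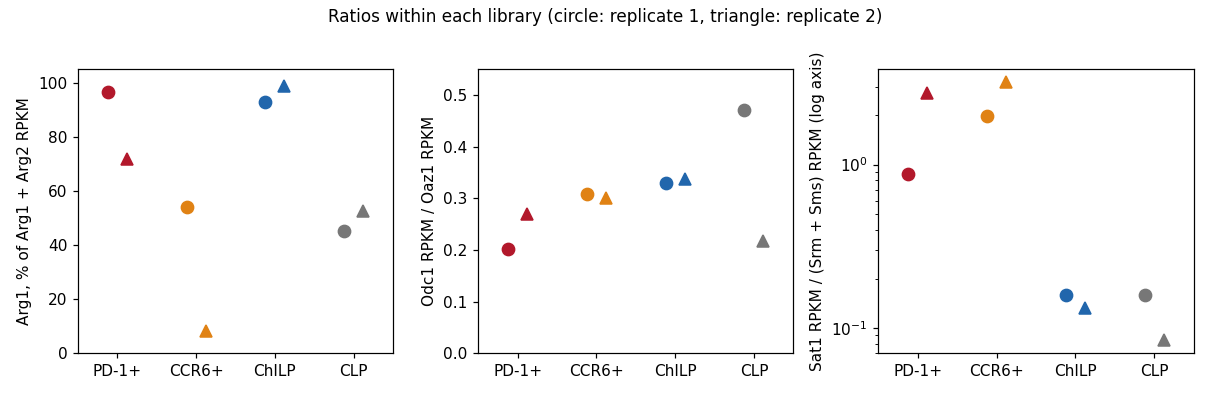
Ratios within each library for the 4 groups: Arg1 as percent of Arg1 plus Arg2 RPKM (left), Odc1 over Oaz1 RPKM (middle), and Sat1 over the sum of Srm and Sms RPKM (right, log axis). The Arg1 share is 72.0% to 98.7% in PD-1+ and ChILP, the Odc1 ratio spans 0.202 to 0.472 with CLP spanning most of it, and the Sat1 ratio is 0.882 to 3.19 in PD-1+ and CCR6+ and 0.0838 to 0.158 in ChILP and CLP.

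Odc1 (NM_013614), which encodes ornithine decarboxylase and is usually regarded as the rate-limiting enzyme of polyamine synthesis, differed little between groups. It stood at 17.4 and 22.8 RPKM in PD-1+, 26.7 and 26.1 in CCR6+, 28.6 and 28.1 in ChILP, and 35.2 and 19.2 in CLP. The CLP libraries lay farther apart than any other 2 libraries outside CLP. PD-1+ lay below CCR6+ and CCR6+ below ChILP, and CLP overlapped all 3. Its log2 fold change was between -0.45 (SE 0.34, PD-1+ against CCR6+) and 0.27 (SE 0.34, CCR6+ against CLP), and the smallest edgeR adjusted p in any comparison was 0.658. The genes most like Odc1 over the 8 libraries were Rbks (Pearson r = 0.916), 4930453N24Rik (0.910), Lypla1 (0.905), Ttc35 (0.904) and Cenpp (0.886), each at modest level and with the same CLP split.

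Oaz1 (NM_008753), the antizyme that binds ornithine decarboxylase and sends it to the proteasome, was the flattest member in RPKM. Its coding sequence is shown because its frameshift site is what makes it a polyamine sensor: the ribosome meets a stop codon after 68 codons and, when polyamines are abundant, shifts by one base to read on. The main GENCODE model of the coding sequence leaves out a base at the site to join the frames. The 60 bases around the site on chromosome 10 (GRCm38) were therefore read from a GENCODE transcript that keeps this base. Counted from the coding start with this base kept, they are bases 175 to 234, with the site TCC TGA in capitals.
Oaz1: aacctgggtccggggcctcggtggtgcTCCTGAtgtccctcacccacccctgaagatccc
RNA levels do not report frameshifting. Oaz1 stood at 86.0 and 84.3 RPKM in PD-1+, 86.4 and 86.5 in CCR6+, 86.7 and 83.2 in ChILP, and 74.5 and 88.4 in CLP. The highest library was 1.19 times the lowest, and all groups except PD-1+ and CCR6+ overlapped. With edgeR's TMM scaling its log2 fold change was 0.34 (SE 0.17) in PD-1+ against CLP and 0.42 (SE 0.17) in CCR6+ against CLP, with adjusted p-values of 0.276 and 0.16, and on log2(RPKM + 1) it was 0.07 and 0.09. The scaling moved all genes: the median log2 fold change of all genes tested was -0.02 and -0.09 in these comparisons with TMM, and -0.26 and -0.36 on log2(RPKM + 1). The ratio of Odc1 to Oaz1, which no scaling between libraries can move, was 0.202 and 0.270 in PD-1+, 0.309 and 0.302 in CCR6+, 0.329 and 0.337 in ChILP, and 0.472 and 0.217 in CLP. The ratio was lowest in PD-1+, higher in CCR6+ and higher again in ChILP without overlap, and CLP overlapped every group.

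Amd1 (NM_009665), S-adenosylmethionine decarboxylase, has a near-identical copy, Amd2 (NM_007444), and the tables gave both genes the same read count in all 8 libraries. The coding sequences have 1005 bases each and differ at 1 position, an identity of 99.9%; the whole transcripts were 99.1% identical. Bases 767 to 826 of both GENCODE coding sequences (GRCm38, chromosome 10) are shown because this is where they differ, with the differing base in capitals.
Amd1: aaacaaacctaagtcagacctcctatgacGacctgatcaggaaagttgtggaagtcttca
Amd2: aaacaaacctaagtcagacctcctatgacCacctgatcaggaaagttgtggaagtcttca
A read of 50 bases that does not cover this base cannot tell the coding sequences apart, so the values below are for either copy. Amd1 stood at 1.05 and 1.75 RPKM in PD-1+, 2.28 and 1.58 in CCR6+, 3.81 and 3.19 in ChILP, and 3.99 and 3.495 in CLP. PD-1+ and CCR6+ libraries all lay below ChILP and CLP libraries. The log2 fold change against CLP was -1.14 (SE 0.57) in PD-1+ and -0.63 (SE 0.57) in CCR6+, with edgeR adjusted p-values of 0.271 and 0.523, and against ChILP it was -0.83 (SE 0.48, adjusted p = 0.294) for PD-1+ and CCR6+ together. None of these passed.

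Srm (NM_009272), spermidine synthase, fell in both captured populations. It stood at 116 and 61.8 RPKM in PD-1+, 68.9 and 61.1 in CCR6+, 320.6 and 283 in ChILP, and 249.5 and 338 in CLP. PD-1+ and CCR6+ overlapped, ChILP and CLP overlapped, and the 4 libraries of the first pair all lay below the 4 of the other. Srm was also the most abundant member per length in all ChILP and CLP libraries, where it made up 56.7% to 70.1% of the summed RPKM of the 8 members, against 15.8% to 26.2% in PD-1+ and CCR6+.

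In PD-1+ against CLP, Srm averaged 88.9 ± 38.3 RPKM in PD-1+ and 294 ± 62.6 in CLP, 2.76-fold lower in PD-1+ (log2 fold change -1.46, SE 0.27, edgeR adjusted p = 0.023). In CCR6+ against CLP it averaged 65.0 ± 5.49 RPKM in CCR6+ and 294 ± 62.6 in CLP, 3.56-fold lower in CCR6+ (log2 fold change -1.83, SE 0.27, adjusted p = 0.0101). In PD-1+ and CCR6+ together against ChILP, Srm was 3.37-fold lower (log2 fold change -1.75, SE 0.22, adjusted p = 0.00708). Without CLP replicate 2 the adjusted p was 0.131 in PD-1+ and 0.0675 in CCR6+ against CLP, and with only the 4 libraries compared it was 0.0756 in PD-1+ against CLP. The calls against ChILP held without each library in turn, with adjusted p-values of 0.00317 to 0.0341.

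Sms (NM_009214), spermine synthase, was far less abundant than Srm per length. It stood at 1.92 and 1.75 RPKM in PD-1+, 0.914 and 1.46 in CCR6+, 2.66 and 3.95 in ChILP, and 2.55 and 2.17 in CLP. The groups lay in the order ChILP, CLP, PD-1+ and CCR6+ with no overlap between neighbours, at 33 to 206 reads per library. None of the steps passed: the edgeR adjusted p was 1.0 in ChILP against CLP, 0.915 in PD-1+ against CCR6+, 0.944 in PD-1+ against CLP, 0.522 in CCR6+ against CLP and 0.269 in PD-1+ and CCR6+ against ChILP.

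Sat1 (NM_009121), the acetyltransferase that starts polyamine breakdown, was arranged opposite to Srm. It stood at 104 and 174 RPKM in PD-1+, 138 and 199.7 in CCR6+, 51.2 and 38.0 in ChILP, and 39.8 and 28.5 in CLP. All PD-1+ and CCR6+ libraries lay above all ChILP and CLP libraries, with overlap inside each pair of groups. Over the 8 libraries, Pearson's r between log2(RPKM + 1) of Sat1 and Srm was -0.973, and between Sat1 and Arg2 it was 0.892, values that rest mostly on the gap between the captured and the depleted groups.

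Sat1 rose 4.94-fold in PD-1+ against CLP (log2 fold change 2.31, SE 0.37, edgeR adjusted p = 0.0162). It rose 6.17-fold in CCR6+ against CLP (log2 fold change 2.63, SE 0.38, adjusted p = 0.00962) and 4.10-fold in PD-1+ and CCR6+ against ChILP (log2 fold change 2.04, SE 0.34, adjusted p = 0.0128). Without CLP replicate 2 the adjusted p was 0.112 in PD-1+ and 0.0734 in CCR6+, without ChILP replicate 2 it was 0.0821 against ChILP, and with only the 4 libraries compared it was 0.0534 in PD-1+ against CLP. Between ChILP and CLP the log2 fold change was 0.43 (SE 0.36, adjusted p = 1.0), and between PD-1+ and CCR6+ it was -0.32 (SE 0.36, adjusted p = 0.922).

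With Arg1, Srm and Sat1, 3 of the 8 members were called in PD-1+ against CLP, where 7.32% of all genes tested were called, 610 higher and 387 lower. On log2(RPKM + 1) limma split its calls as 625 higher and 996 lower. Srm and Sat1, 2 of the 8, were called in CCR6+ against CLP, where 11.4% were called, 897 higher and 652 lower, with a limma split of 844 higher and 1721 lower. The same 2 were called in PD-1+ and CCR6+ against ChILP, where 12.2% were called, 825 higher and 843 lower, with a limma split of 808 higher and 1621 lower. Counted by levels alone, the libraries did not overlap for 2 of the 8 members in ChILP against CLP (35.6% of all genes), 4 in PD-1+ against CCR6+ (33.2%), 6 in PD-1+ against CLP (57.3%), 5 in CCR6+ against CLP (65.5%) and 5 in PD-1+ and CCR6+ against ChILP (42.0%). Read against the shares of all genes, the counts by levels alone are no result about the members. The counts of called members rest on 8 genes chosen with earlier results known. Neither kind of count was tested. Marker sums of other marrow cells separated the same libraries as Sat1 and Srm. The sum of 9 neutrophil markers was 9716 to 20620.0 RPKM in PD-1+ and CCR6+ and 799 to 5525 in ChILP and CLP, and that of 9 erythroid markers was 33230.0 to 48860.0 and 1570.0 to 7983. The sum of 5 early myeloid markers ran the other way, at 747 to 1738 and 6973 to 9888. In the erythroid list, Hba-a1, Hbb-b1 and Hbb-b2 made up most of the sum. Car1 ran against that sum, at 87.8 to 138 RPKM in PD-1+ and CCR6+ and 422 to 591 in ChILP and CLP. Klf1 overlapped, at 230 to 375 and 254.5 to 396. The other 7 erythroid markers lay higher in PD-1+ and CCR6+ than in ChILP without overlap. Within PD-1+ and within CCR6+, replicate 2 had the higher sum of monocyte markers, the higher Sat1 and the lower Srm. Within ChILP and within CLP, replicate 1 had the higher sum and the higher Sat1. Srm was lower in CLP replicate 1 than in CLP replicate 2, but higher in ChILP replicate 1 than in ChILP replicate 2. Over all 8 libraries, the order by Sat1 was the order by the monocyte and macrophage sum. The part of these cells in the levels of Sat1 and Srm was not tested.

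**Figure D3:**
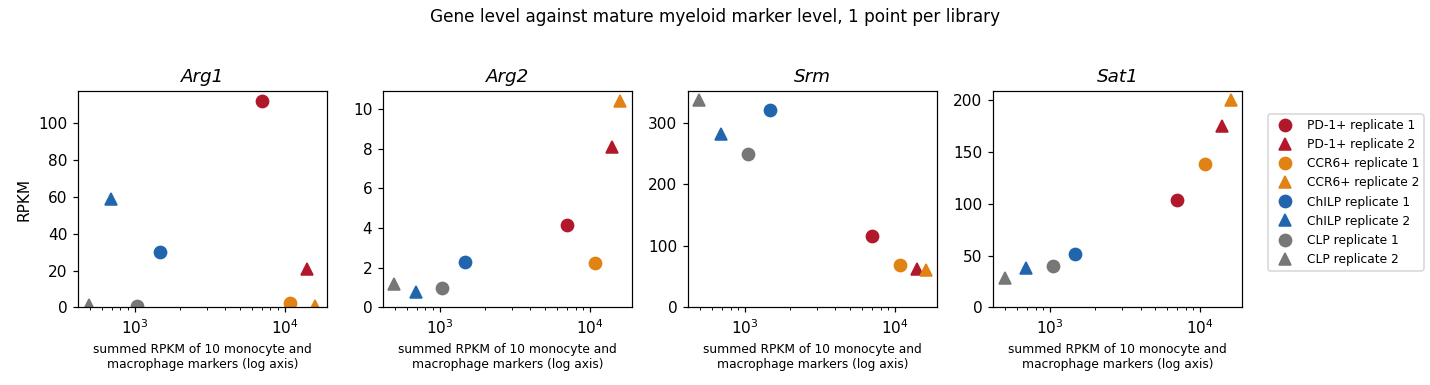
RPKM of Arg1, Arg2, Srm and Sat1 (vertical, linear axes) against the summed RPKM of 10 monocyte and macrophage markers (horizontal, log axis), with 1 point per library, a colour per group and a shape per replicate. Sat1 rises with the marker sum, from 28.5 at a sum of 497 to 199.7 at 15910.0, Srm is low at sums of 7033 and above, and Arg1 has no such order: the library with the highest sum has 0.929.

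**Figure D4:**
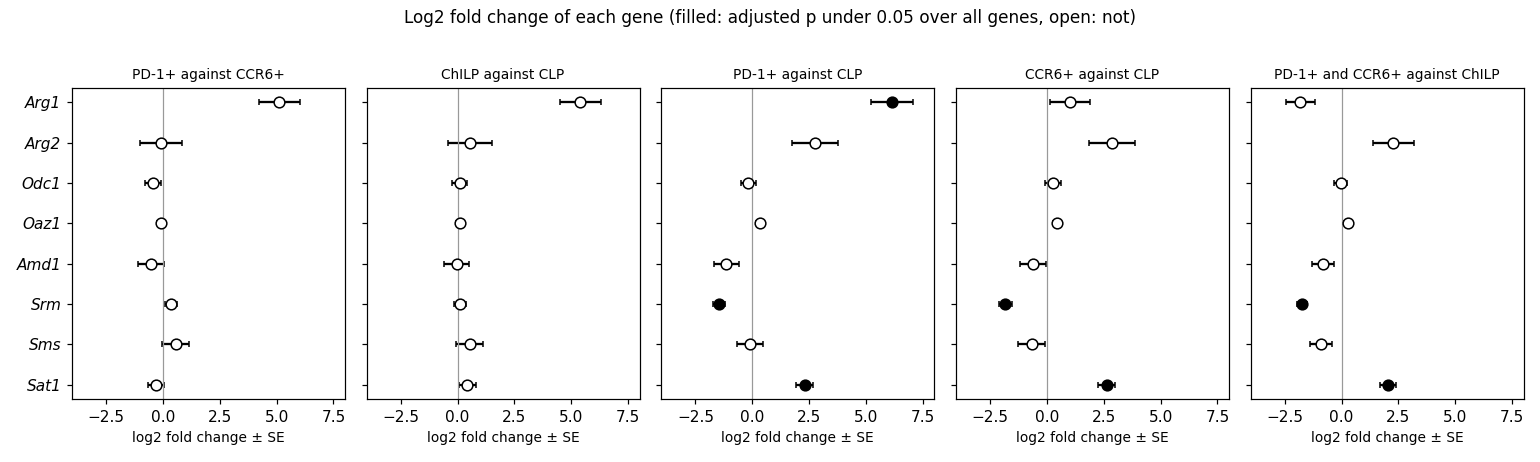
Log2 fold change of the 8 members in the 5 comparisons, with bars of 1 SE; filled points have an edgeR adjusted p under 0.05 and open points do not. The filled points are Arg1, Srm and Sat1 in PD-1+ against CLP, and Srm and Sat1 in CCR6+ against CLP and in PD-1+ and CCR6+ against ChILP.

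RefSeq promoters (GRCm38.p6, 250 bases before to 50 after the gene start; the files use mm9) were found for 5 of the 8 members. Sat1, called in 3 comparisons, and Odc1, called in none, are shown side by side. Capitals mark each GC box, searched as GGGCGG on both strands (CCGCCC on the reverse), a motif that 35.7% of 32851 mouse promoters of this length hold. Sat1 is chrX:155216400-155216699 on the minus strand and Odc1 is chr12:17544623-17544922 on the plus strand, and both read 5′ to 3′ along the gene.
Sat1: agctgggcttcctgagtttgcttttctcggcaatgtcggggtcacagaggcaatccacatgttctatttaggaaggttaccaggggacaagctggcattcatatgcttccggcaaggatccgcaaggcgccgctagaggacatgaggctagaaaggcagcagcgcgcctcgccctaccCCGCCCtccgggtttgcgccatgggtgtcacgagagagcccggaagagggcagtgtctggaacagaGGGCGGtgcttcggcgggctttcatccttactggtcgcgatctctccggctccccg
Odc1: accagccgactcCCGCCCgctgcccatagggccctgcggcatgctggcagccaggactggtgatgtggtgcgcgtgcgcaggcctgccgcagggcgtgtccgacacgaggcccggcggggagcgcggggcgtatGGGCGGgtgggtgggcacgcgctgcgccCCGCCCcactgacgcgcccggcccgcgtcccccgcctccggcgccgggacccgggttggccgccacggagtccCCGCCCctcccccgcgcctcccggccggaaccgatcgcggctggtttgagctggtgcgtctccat
The Odc1 promoter holds 4 GC boxes and that of Sat1 holds 2. Within this window, neither holds the E-box CACGTG, found in 7.15% of promoters, or TATAAA on either strand, found in 13.6%. Sequence outside the window was not searched. Of the other entries, Amd1 has 1 GC box, Oaz1 has 1 TATAAA match and no GC box, and Sms has 2 starts, 1 with 4 GC boxes and the other with 1 E-box.

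The ratio of Sat1 to the sum of Srm and Sms set the catabolic enzyme against the aminopropyltransferases within each library. It was 0.882 and 2.75 in PD-1+, 1.98 and 3.19 in CCR6+, 0.158 and 0.132 in ChILP, and 0.158 and 0.0838 in CLP. The captured groups lay wholly above the others, and the ratio differed more than 3-fold between the PD-1+ libraries.

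Around the members, a list of 56 genes of arginine supply, ornithine use, polyamine breakdown and transport, methionine salvage, hypusine formation and MYC regulators was counted. Of these, 54 were found and 44 were tested, and Oaz2 and Slc18b1 were not analysed here. In ChILP against CLP and in PD-1+ against CCR6+, 0 of 44 were called by edgeR. In ChILP against CLP, 3 of the 44 had an unadjusted p under 0.05, as did 5.82% of all genes, and the median log2 fold change was 0.10 for the list and 0.05 for all genes. Atp13a2, a lysosomal polyamine exporter, stood at 15.4 and 23.1 RPKM in ChILP and 36.8 and 48.4 in CLP (log2 fold change -1.08, SE 0.23, edgeR adjusted p = 0.212). In PD-1+ against CCR6+, 7 of the 44 had an unadjusted p under 0.05, as did 5.88% of all genes, and the median was 0.12 for the list and 0.01 for all genes. Dohh, which completes hypusine, stood at 33.8 and 42.5 RPKM in PD-1+ and 83.9 and 66.8 in CCR6+ (log2 fold change -1.03, SE 0.23, adjusted p = 0.645). Mycn, a MYC family factor, stood at 26.4 and 5.50 RPKM in PD-1+ and 0 and 0.529 in CCR6+ (log2 fold change 5.70, SE 1.26, adjusted p = 0.636). In each of these 3 genes the libraries did not overlap. The other genes with no overlap and the largest changes in ChILP against CLP were Nags (log2 fold change 0.86), Smox (0.82) and Apip (0.51) on the higher side and Myc (-0.51) and Adi1 (-0.20) on the lower side. In PD-1+ against CCR6+ they were Mri1 (1.03) and Aldh18a1 (0.95) on the higher side and Slc7a5 (-0.98) and Slc7a7 (-0.85) on the lower side. None of them passed.

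Against CLP, more of the list was called lower than higher. In PD-1+, 1 of 44 was called higher and 6 lower, where 4.48% and 2.84% of all genes were, with a median log2 fold change of -0.43, against -0.02 over all genes. In CCR6+, 3 were called higher and 10 lower, where 6.59% and 4.79% of all genes were, with a median of -0.52, against -0.09 over all genes. In PD-1+ and CCR6+ against ChILP, 1 was called higher and 12 lower, where 6.06% and 6.19% of all genes were, with a median of -0.62, against -0.11 over all genes. The 3 comparisons share libraries, and the list as a whole was not tested.

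Smox (NM_001177833), spermine oxidase, was the gene called higher in all 3. It stood at 105.5 and 113 RPKM in PD-1+, 90.9 and 119 in CCR6+, 51.2 and 24.7 in ChILP, and 23.1 and 21.4 in CLP. It rose 5.92-fold in PD-1+ (edgeR adjusted p = 0.0112) and 5.91-fold in CCR6+ (adjusted p = 0.00808) against CLP, and 3.35-fold in both together against ChILP (adjusted p = 0.0144). Every captured library lay above every depleted one, as for Sat1. Paox, the oxidase that acts on the acetylated polyamines that Sat1 makes, was not arranged so. It stood at 5.19 and 2.27 RPKM in PD-1+, 2.59 and 2.45 in CCR6+, 6.46 and 6.15 in ChILP, and 3.93 and 7.002 in CLP, and was called in no comparison; the smallest edgeR adjusted p was 0.344. It is named here after its values were seen. In CCR6+, Slc7a7, a light chain of arginine exchange, rose 4.78-fold against CLP (13.7 RPKM in CCR6+ and 3.59 in CLP on average, edgeR adjusted p = 0.0272), and Slc3a2, the heavy chain it pairs with, rose 1.94-fold (adjusted p = 0.0249). Smox and Slc7a7 were higher in the libraries with high myeloid marker sums, and the part of those cells in their levels was not tested.

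The genes called lower included some of the branch between ornithine, glutamate and proline. Of the 6 genes of this branch, 1 was called lower in PD-1+ and 3 in CCR6+ against CLP. Oat, ornithine aminotransferase, stood at 27.8 and 33.6 RPKM in PD-1+, 34.4 and 49.3 in CCR6+, 102 and 91.3 in ChILP, and 83.1 and 76.8 in CLP, and fell 2.15-fold in PD-1+ against CLP (edgeR adjusted p = 0.0357). Aldh18a1, which makes the precursor of proline and ornithine from glutamate, fell 4.02-fold in CCR6+ against CLP (6.84 RPKM in CCR6+ and 34.6 in CLP on average, adjusted p = 0.00962). Pycrl, which completes proline from ornithine, fell 2.25-fold (adjusted p = 0.0332), and Prodh, which breaks proline down, fell 2.97-fold (adjusted p = 0.0334) in the same comparison. In PD-1+ and CCR6+ against ChILP, Oat, Aldh18a1, Pycrl and Prodh, 4 of the 6 genes of this branch, were called lower, as were 6.19% of all genes.

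Gatm, which draws arginine into creatine synthesis, fell 3.55-fold in PD-1+ and 2.97-fold in CCR6+ against CLP, with edgeR adjusted p-values of 0.00992 and 0.00762. It stood at 13.7 and 16.7 RPKM in PD-1+, 18.4 and 16.6 in CCR6+, 77.8 and 71.7 in ChILP, and 61.1 and 69.7 in CLP. Myc, a factor known to drive Odc1 and Srm transcription, fell 3.87-fold in PD-1+ (adjusted p = 0.00992) and 5.32-fold in CCR6+ (adjusted p = 0.00471). It stood at 69.1 and 47.4 RPKM in PD-1+, 35.7 and 45.0 in CCR6+, 188 and 177 in ChILP, and 234 and 309 in CLP. As in Srm, all captured libraries lay below all depleted ones. Odc1 had no such arrangement, with log2 fold changes of -0.17 (SE 0.34) in PD-1+ and 0.27 (SE 0.34) in CCR6+ against CLP. The part of Myc in the levels of Srm and Odc1 was not tested.

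The methionine and hypusine genes that were called also fell. Mat2a, which makes S-adenosylmethionine, fell 1.65-fold (edgeR adjusted p = 0.0364) in CCR6+ against CLP, and the salvage enzymes Mri1 and Adi1 fell 2.704-fold (adjusted p = 0.0293) and 2.52-fold (adjusted p = 0.0245). Eif5a, the protein that carries hypusine, stood at 674 and 675 RPKM in PD-1+, 574 and 689.9 in CCR6+, 1533 and 1209 in ChILP, and 1151 and 1538 in CLP, and fell 1.77-fold in PD-1+ and CCR6+ against ChILP (adjusted p = 0.0244). Dohh fell 1.94-fold in PD-1+ against CLP (adjusted p = 0.0493). All captured libraries lay below all depleted ones in Oat, Aldh18a1, Pycrl, Prodh, Gatm, Myc, Mat2a, Mri1, Adi1, Eif5a and Dohh. The sum of early myeloid markers was arranged the same way. The part of early myeloid cells in the levels of these genes was not tested.

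Other calls rest on very few reads. Nags, which makes the activator of the first urea cycle enzyme, had 1 read in PD-1+ and 0 in CCR6+, against 235 in CLP and 552 in ChILP. It was at least 78.1-fold lower in CCR6+ than in CLP, taking 3 counts over the group as the floor. In PD-1+ the CLP to PD-1+ ratio was 286, with a 95% counting interval of 50.8 to 11330.0. Adc, the antizyme inhibitor Azin2, had 2 reads in PD-1+ and 315 in CLP, a CLP to PD-1+ ratio of 191 (95% counting interval 52.5 to 1587). Mycn was called lower in CCR6+ against CLP (adjusted p = 0.0416), where 1 CCR6+ library had 0 reads. Cps1 and Otc, the urea cycle enzymes that make citrulline, had 0 reads in all 8 libraries, as did Satl1, Slc12a8 and Slc47a1.

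**Figure D5:**
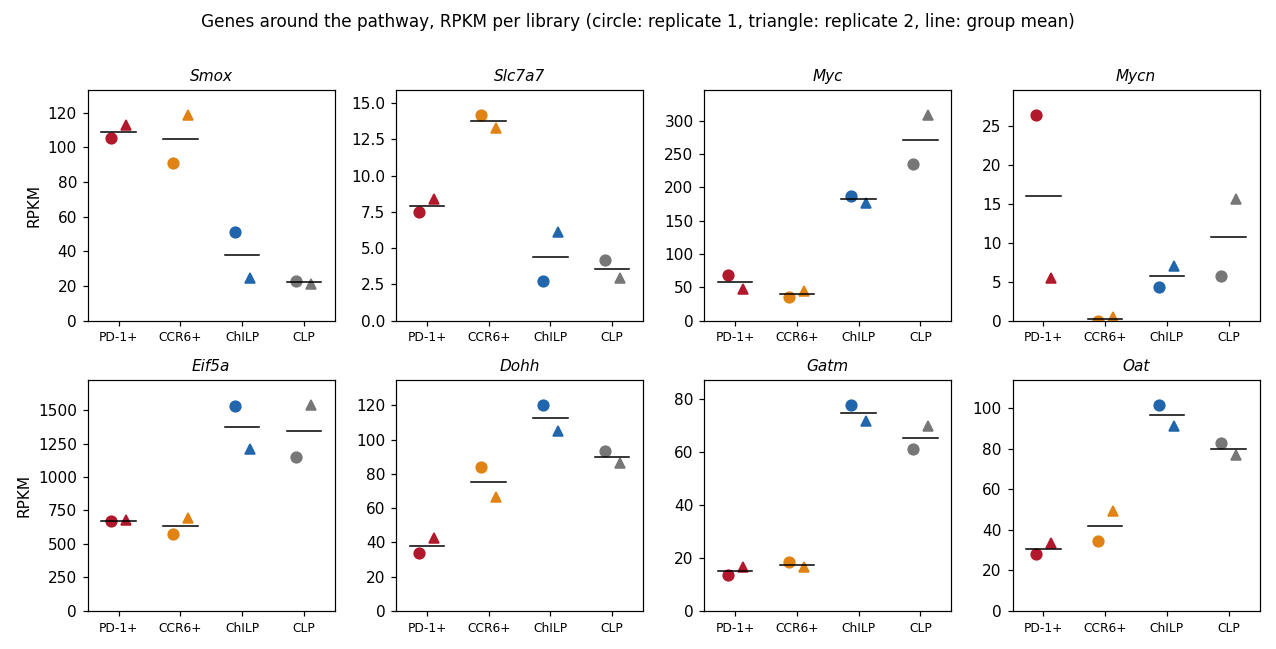
RPKM of 8 genes around the pathway in each library, on an axis of its own for each gene; circles are replicate 1, triangles replicate 2 and lines group means. Smox is high in PD-1+ and CCR6+ (90.9 to 119) and Slc7a7 is highest in CCR6+, while Myc, Eif5a, Gatm and Oat are lower in PD-1+ and CCR6+ than in ChILP and CLP.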

How the data were processed

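Per the labels, sorted marrow cells were lysed, RNA was amplified with Smart-seq2, and libraries were read at 50 bases. Bowtie2 2.2.2, CASAVA 1.8.4 and mm9 stand in the submitters' processing notes; for the counter, its strand setting and shared reads the sources used here give nothing. The authors deposited 1 table per library of 29257 RefSeq transcripts holding, for each, its length, its RPKM and its read count as a whole number. Each symbol was represented by its transcript with the largest mean count.

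The test was edgeR's two-sided quasi-likelihood F test (version 4.0.16, R 4.3.3; robust, TMM scaling, filterByExpr at its minimum count of 10) on the counts of all 8 libraries in 1 fit, and adjusted by Benjamini-Hochberg over 13619 genes. Standard errors are the log2 fold change over the square root of F. The common biological coefficient of variation was 0.526. Alternatives were DESeq2 1.42.0, limma 3.58.1 on log2(RPKM + 1) and log2(RPKM + 0.1), other filters, the longest transcript, a replicate block, only the libraries compared, and leaving out each library. The edgeR script was tested on simulated data. Amplified reads carry no molecular identifiers here, so intervals and floors cover counting error only.

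Members and lists were chosen with earlier results of these data known, and the comparison of PD-1+ and CCR6+ with ChILP was added after the values were seen. The 8 members are always named. Of the pathway list, the genes called are named, or where none was called those with the largest changes and no overlap, up to 3 per direction averaging 10 RPKM or more on the higher side. Same-numbered libraries share only a number.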

Additional observations from a re-analysis of the deposited data

How the results depend on the processing

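Genes called in ChILP against CLP numbered 0 with DESeq2 size factors, 261 with DESeq2's Wald test, 32 and 19 with limma on log2(RPKM + 1) and log2(RPKM + 0.1), 63 with no filter, 15 with 5 RPKM in 2 libraries, 59 with only the libraries compared and 0 with the replicate block, against 3. Leaving out 1 library gave 0 to 24. In PD-1+ against CCR6+ they numbered 131 by Wald and 6 with limma at 0.1, against 0 (0 to 36 leaving out 1). In PD-1+ against CLP they numbered 2302 by Wald, 1621 and 613 with limma, 208 with only the libraries compared and 632 with the replicate block, against 997 (8 to 811). In CCR6+ against CLP they numbered 2768 by Wald and 2565 with limma at 1, against 1549 (83 to 770.0). In PD-1+ and CCR6+ against ChILP they numbered 2814 by Wald, against 1668 (248 to 1895). Without CLP replicate 2, 8 genes were called in PD-1+ and 83 in CCR6+ against CLP; without ChILP replicate 2, 248 were called against ChILP.

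Members called numbered 1 by Wald and 1 with only the libraries compared in ChILP against CLP (0 to 0 leaving out 1 library), 1 by Wald in PD-1+ against CCR6+ (0 to 1), 1 with only the libraries compared in PD-1+ against CLP (0 to 3), and 4 by Wald in PD-1+ and CCR6+ against ChILP (1 to 3), and ranged from 0 to 2 in CCR6+ against CLP. The replicate block changed no member's call. Correlations of the deviations of same-numbered libraries were 0.139 for ChILP and CLP, 0.0958 for PD-1+ and CCR6+, -0.113 for PD-1+ and CLP and 0.0267 for CCR6+ and CLP. With ChILP they were -0.168 for PD-1+ and -0.0878 for CCR6+. Among members that were not called, Arg2 in PD-1+ against CCR6+ turned to 0.17 and 0.24 with limma on log2(RPKM + 1) and log2(RPKM + 0.1), and Odc1 against ChILP turned to 0.041 with DESeq2 size factors and 0.041 with its Wald test. Leaving out 1 library, the log2 fold change crossed 0 for Arg2 (-0.43 to 1.11), Odc1 (-0.33 to 0.69), Srm (-0.038 to 0.26) and Amd1 (-0.21 to 0.13) in ChILP against CLP. It did so for Arg2 (-0.80 to 1.39), Srm (-0.088 to 0.70) and Sat1 (-0.83 to 0.031) in PD-1+ against CCR6+, for Odc1 (-0.60 to 0.42) and Sms (-0.28 to 0.10) in PD-1+ against CLP, for Odc1 (-0.15 to 0.87) in CCR6+ against CLP, and for Odc1 (-0.19 to 0.14) against ChILP. Every called member kept its direction under all alternatives run. The cause of these shifts was not tested. Depth limits Sms, Amd1, Arg2 and, in CCR6+ and CLP, Arg1, which rest on 13 to 223 reads per library.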
